A study of Mus musculus with 45 samples.

Results

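Acetaminophen (APAP) was compared with its vehicle in mouse liver 3 h after dosing, across all 18180 genes, on 10 of the 45 microarrays of the series. These were the 5 arrays whose titles name APAP at 3 h and the 5 whose titles name vehicle at 3 h, each from 1 mouse. The APAP mice were male C57Bl/6J animals, which had gone without food for 16 h and then received 300 mg/kg APAP by oral gavage in 1% (w/v) hydroxyethylcellulose. The vehicle mice were of the same strain, sex and fast and were gavaged with hydroxyethylcellulose alone. The study's methods give an age of 8 weeks and a weight of 15 to 22 g for mice of its dose-finding study, and name no age for the time course. Another group of 5 such mice was left untreated and killed at 0 h, and further groups of 5 were killed 6, 9 and 24 h after APAP or vehicle. The labels name no altered allele. The study's text says that food was given back after the fast, but not at which hour or how much each mouse ate.

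APAP is cleared in the liver largely by sulfation and glucuronidation, but a part is oxidised by cytochrome P450 enzymes to a reactive quinone imine that glutathione traps. Once glutathione runs short, the quinone imine binds proteins, oxidative stress activates the kinase JNK, and hepatocytes around the central vein, where the P450 enzymes are concentrated, are the first to die. Livers under such stress are known to switch on immediate early genes, the antioxidant programme of the factor Nrf2, the integrated stress response that runs through ATF4, and heat shock genes.

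Each value below is a log2 expression level after RMA normalisation, which fits 1 number per gene and array, so a difference of 1 log2 unit is a 2-fold change. A gene was called changed when limma's moderated test gave a Benjamini-Hochberg adjusted p under 0.05 over all 18180 genes and the change was at least 1.5-fold. By this rule 306 genes, or 1.68% of those tested, were higher in APAP livers and 426, or 2.34%, were lower. At any size, 4068 genes passed the adjusted p and 6282 an unadjusted p under 0.05. Changes of at least 4-fold were found in 41 of the called genes that were higher and in 8 of those that were lower. All 5 APAP arrays lay above all 5 vehicle arrays in 283 of the 306 genes and below them in 375 of the 426, against 6.29% and 9.79% of all genes. The called genes were chosen on these same arrays, so their separation is a description and no further support. The first principal component held 59.93% of the variance among the 10 arrays and separated the groups, while APAP mouse 4 and vehicle mouse 3 lay apart on the second, with 10.85%. Array medians ranged from 7.607 to 7.653.

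The tissue label was borne out by its defining markers. Albumin (Alb) stood at 14.99, 15.01, 14.99, 14.96 and 14.98 in APAP mice and 14.98, 14.98, 15.004, 14.99 and 14.98 in vehicle mice, near the top of the scale, and none of 14 hepatocyte markers was called. Among the markers of other cells 4 were called, all higher in APAP: the neutrophil calgranulins S100a8 and S100a9, the Kupffer cell haemoglobin receptor Cd163, and the sinusoidal endothelial receptor Lyve1. These were 2 of 16 neutrophil, 1 of 14 Kupffer cell and 1 of 20 sinusoidal endothelial markers. Over all genes 1.68% were higher. The call of S100a9 was lost without APAP mouse 3, and both calgranulin calls were lost in 1 model over all 45 arrays. Without APAP mouse 3 or 4, 2 Kupffer cell markers were called in place of 1. No marker of monocytes, lymphocytes, stellate cells, bile duct, red cells or pancreas was called. The summed linear level of the 16 neutrophil markers ran from 3950.0 to 4620.0 in APAP mice, against 3270.0 to 3930.0 in vehicle mice, and all 16 differences between APAP and vehicle were above 0. Untreated mice, at 3600.0 to 5150.0, covered the whole APAP range. The summed level of the 14 Kupffer cell markers ran from 12100.0 to 18900.0 in APAP mice, 11000.0 to 15000.0 in vehicle mice and 12100.0 to 15600.0 in untreated mice. None of these marker genes was at 0, and the part of these cells in the results was not tested.

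**Figure D1:**
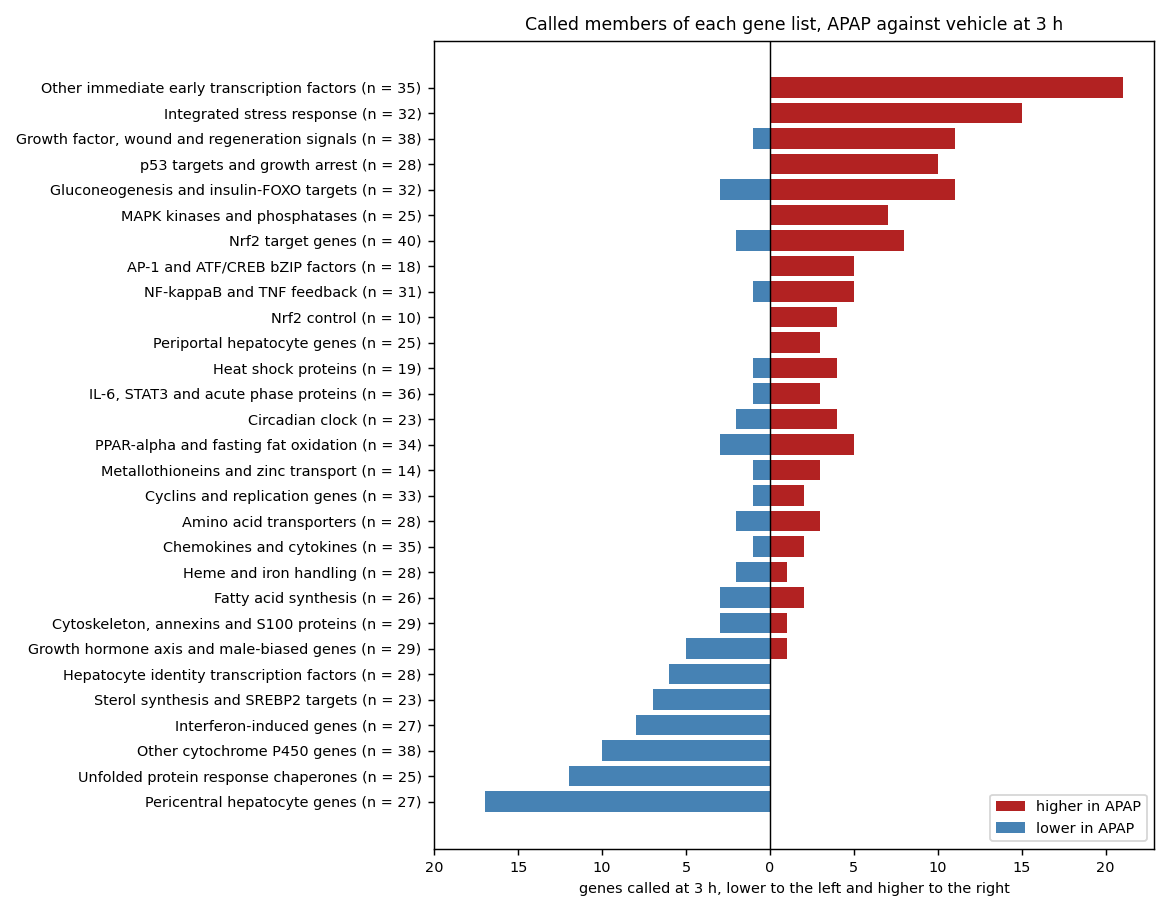
Number of called genes in each gene list with at least 3 called members, APAP against vehicle at 3 h, with genes lower in APAP to the left and genes higher to the right and the number of measured members in brackets. The immediate early and integrated stress response lists stood at one end with 21 of 35 and 15 of 32 members higher, and pericentral and unfolded protein response genes at the other with 17 of 27 and 12 of 25 lower.

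Immediate early genes, which need no new protein to be transcribed and answer stress kinases within minutes, held the largest share of increases among the 40 pathway lists. Of 18 AP-1 and ATF/CREB bZIP factors 5 were higher and none lower, and of 35 other immediate early genes 21 were higher and none lower, with a median difference of 0.97 log2 units against 0.02 over all genes. Btg2, an antiproliferative co-regulator that recruits mRNA deadenylases, stood at 13.69, 12.63, 13.37, 13.39 and 12.97 in APAP mice 1 to 5, against 8.96, 9.24, 9.09, 8.92 and 9.12 in vehicle mice 1 to 5. The difference was 4.14 ± 0.16 log2 units, 17.7-fold higher, adjusted p = 4.94e-09, and the groups were far apart, with APAP mouse 2 the lowest of its group. Maff, a small Maf protein that pairs with Nrf2 and with itself, stood at 11.38, 11.37, 11.29, 11.05 and 11.62 in APAP mice and 7.15, 7.48, 7.16, 7.22 and 7.45 in vehicle mice (4.05 ± 0.1 log2 units, 16.5-fold higher, adjusted p = 7.75e-11). Klf6, a zinc-finger factor of injured liver, stood at 10.26, 10.11, 10.07, 10.21 and 10.48 in APAP mice and 6.73, 6.75, 6.59, 6.48 and 6.78 in vehicle mice (3.56 ± 0.083 log2 units, 11.8-fold higher, adjusted p = 5.81e-11). The APAP mice were close together in both, with SDs of 0.202 and 0.162.

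The orphan nuclear receptor Nr4a1 was less even. It stood at 12.91, 11.03, 12.64, 12.34 and 12.51 in APAP mice, against 8.73, 8.52, 8.67, 8.63 and 8.71 in vehicle mice (3.64 ± 0.27 log2 units, 12.4-fold higher, adjusted p = 1.75e-06), and APAP mouse 2 lay well below the other 4. The same mouse was the lowest of its group in Egr2, an early growth response factor, at 7.74, 6.54, 7.55, 7.28 and 7.79 in APAP mice, against 4.45, 4.51, 4.53, 4.61 and 4.45 in vehicle mice (2.87 ± 0.19 log2 units, 7.3-fold higher, adjusted p = 6.76e-07). It was also lowest in the stress kinase Plk3, with 12.84, 12.23, 12.81, 12.81 and 12.38 in APAP mice and 9.28, 9.28, 9.27, 9.26 and 9.24 in vehicle mice (3.35 ± 0.11 log2 units, 10.2-fold higher, adjusted p = 1.48e-09). Egr1 showed the opposite: the 5 APAP mice were close together at 14.10, 13.94, 14.07, 14.22 and 14.26, whereas the vehicle mice ranged widely at 10.07, 10.49, 10.20, 8.52 and 11.65 (3.93 ± 0.41 log2 units, 15.3-fold higher, adjusted p = 2.55e-05). Bhlhe40, Klf15 and Plk2, from the same list, were not called, with differences of 0.04, -0.34 and 0.09 log2 units and overlapping groups.

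Some genes that feed back on the mitogen-activated protein kinases were also higher. Of 25 kinases, phosphatases and other regulators of this pathway 7 were higher and none lower. The 7 included 5 dual-specificity phosphatases, which switch the kinases off. The other phosphatases of the list and its Sprouty and Spred inhibitors were not called. Dusp1, which acts on JNK and p38, stood at 13.13, 12.69, 13.03, 12.996 and 13.20 in APAP mice and 10.33, 10.71, 10.40, 9.89 and 9.24 in vehicle mice (2.89 ± 0.22 log2 units, 7.43-fold higher, adjusted p = 2.12e-06). Dusp6, specific for ERK, stood at 13.23, 12.80, 13.02, 12.92 and 13.06 in APAP mice and 11.33, 11.39, 11.38, 11.17 and 11.32 in vehicle mice (1.69 ± 0.076 log2 units, 3.23-fold higher, adjusted p = 2.2e-08), with no overlap. Dusp8, Dusp5 and Dusp16 differed by 1.26, 0.95 and 0.81. Of the kinases themselves, Map3k8 (Tpl2) and Map3k5 (ASK1, upstream of JNK) were higher by 1.20 and 0.66 (the call of Map3k5 was lost without APAP mouse 5), while the JNK genes Mapk8 and Mapk9 differed by 0.15 and -0.12 and were not called.

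The start regions of Btg2 and Dusp1 show a motif that was more frequent among the increased genes, by a count that was not tested. RefSeq windows of 300 bases around the annotated start, most of them upstream, were held for 14260 measured genes, 244 of them higher and 320 lower in APAP. These genes had 17901 windows, and a gene was counted if any of its windows held the motif. The cAMP response element (CRE), TGACGTCA, read on both strands, is bound by CREB and ATF factors, ATF3 among them. It occurred in the windows of 20 of 244 higher genes (8.2%), 3 of 320 lower genes (0.938%) and 429 of all 14260 (3.01%). The 20 included Btg2, Maff, Dusp1, Dusp8, the phosphatase subunit Ppp1r15a and the mitochondrial carrier Slc25a25. Over all 429 genes with the motif the median difference was 0.01 log2 units and 406 were not called. Both windows are given 5′ to 3′ on the strand of the gene, GRCm38.p6, with the CRE in capitals, for Btg2 at chr1:134079106-134079405 (minus strand) and Dusp1 at chr17:26508423-26508722 (minus strand). The match began at -166 and -143 from the start.
Btg2: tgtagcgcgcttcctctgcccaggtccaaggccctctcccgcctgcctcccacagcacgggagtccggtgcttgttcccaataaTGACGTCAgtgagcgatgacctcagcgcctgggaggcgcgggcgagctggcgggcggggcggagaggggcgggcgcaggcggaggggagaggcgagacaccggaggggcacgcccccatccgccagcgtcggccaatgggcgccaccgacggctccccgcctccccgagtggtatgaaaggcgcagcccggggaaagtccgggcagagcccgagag
Dusp1: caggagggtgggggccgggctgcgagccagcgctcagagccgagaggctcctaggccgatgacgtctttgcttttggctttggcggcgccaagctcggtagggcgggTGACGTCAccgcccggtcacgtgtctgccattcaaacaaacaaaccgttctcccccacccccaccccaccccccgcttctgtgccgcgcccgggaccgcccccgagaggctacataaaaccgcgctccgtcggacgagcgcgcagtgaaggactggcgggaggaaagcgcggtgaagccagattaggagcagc

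Part of the Nrf2 programme was higher. Of 10 genes of its control circuit 4 were higher and none lower, and of 40 target genes 8 were higher and 2 lower, with a median of 0.12. Leaving out vehicle mouse 2 or 3 or APAP mouse 2, 3 or 4 left 1 target lower. Gclc, the catalytic subunit of the rate-limiting enzyme of glutathione synthesis, stood at 13.67, 13.81, 13.72, 13.49 and 13.73 in APAP mice and 12.67, 12.29, 12.56, 12.61 and 12.64 in vehicle mice (1.13 ± 0.08 log2 units, 2.19-fold higher, adjusted p = 1.29e-06). Srxn1, which reduces hyperoxidised peroxiredoxins, stood at 11.85, 12.50, 12.06, 11.82 and 11.77 in APAP mice and 10.16, 9.64, 9.83, 10.16 and 10.62 in vehicle mice (1.92 ± 0.18 log2 units, 3.78-fold higher, adjusted p = 1.04e-05). Osgin1, an oxidative stress growth inhibitor, was higher by 1.32 with all 5 APAP mice between 12.89 and 13.10, above all vehicle mice at 11.46 to 11.95. Smaller increases were those of Pgd in the pentose phosphate pathway (0.74), the aldo-keto reductase Akr1b8 (0.88) and the efflux pump Abcc2 (0.67, not called without APAP mouse 3), while the carboxylesterase Ces2g was lower (-0.78).

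Several other members of the programme were not called. Nqo1, the quinone reductase often used as its readout, stood at 8.23, 8.66, 8.57, 8.59 and 8.33 in APAP mice and 7.91, 8.11, 7.79, 7.98 and 8.45 in vehicle mice, overlapping, at 0.43 ± 0.12 log2 units, 1.34-fold higher, adjusted p = 0.021. The cystine importer Slc7a11 stayed near the bottom of the scale with 5.11 to 5.16 in APAP and 5.03 to 5.11 in vehicle mice. Gstm1, Prdx1 and Fth1 differed by 0.05, 0.01 and 0.11, near the top of the scale, where saturation of the probes was not tested.

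Within the control circuit, Bach1, a repressor of the same DNA elements, split the APAP mice. It stood at 10.73, 10.48, 10.55, 9.19 and 9.57 in APAP mice, against 8.04, 7.89, 8.71, 8.07 and 8.34 in vehicle mice (1.89 ± 0.27 log2 units, 3.72-fold higher, adjusted p = 0.000346), and mice 4 and 5 lay below the other 3. The thioredoxin reductase Txnrd1 was lowest in the same 2 mice, at 10.82, 11.05, 10.93, 10.08 and 10.29 in APAP mice and 9.62, 9.38, 10.17, 9.70 and 9.50 in vehicle mice (0.96 ± 0.19 log2 units, 1.94-fold higher, adjusted p = 0.00315), and its groups overlapped through APAP mouse 4 and vehicle mouse 3. Mafk and the autophagy adaptor Sqstm1 were higher by 0.70 and 0.68, both with no overlap, and Nrf2 itself (Nfe2l2) by 0.37, under the 1.5-fold limit. Keap1, which holds Nrf2 down, differed by 0.08.

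Among 36 other glutathione and thioredoxin enzymes 1 was higher and 1 lower, beside 1.68% and 2.34% of all genes. The 2 called were the ChaC enzymes, which break glutathione down. Without APAP mouse 5, 2 were lower. Chac1 stood at 10.11, 10.29, 9.87, 10.54 and 10.42 in APAP mice and 7.98, 7.84, 8.19, 8.31 and 8.21 in vehicle mice (2.14 ± 0.12 log2 units, 4.41-fold higher, adjusted p = 2.16e-07). Chac2 moved the other way, at 9.37, 9.08, 9.35, 9.45 and 9.65 in APAP mice and 10.32, 10.63, 10.12, 10.31 and 10.19 in vehicle mice (-0.93 ± 0.11 log2 units, 1.91-fold lower, adjusted p = 6.65e-05). Glutathione synthetase (Gss) and the peroxidase Gpx1 differed by 0.08 and -0.06 and were not called.

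Chac1 also belongs to the integrated stress response, in which phosphorylated eIF2α slows translation while ATF4 and CHOP switch on their targets. Of 32 genes of this response 15 were higher and none lower, with a median of 0.51 log2 units. Trib3, a pseudokinase induced by ATF4 and CHOP, stood at 9.28, 9.19, 9.22, 9.78 and 9.48 in APAP mice and 7.66, 7.81, 7.75, 7.50 and 8.21 in vehicle mice (1.60 ± 0.13 log2 units, 3.03-fold higher, adjusted p = 5.39e-06). The gene of CHOP (Ddit3) stood at 12.03, 11.97, 11.97, 11.89 and 12.40 in APAP mice and 10.35, 9.84, 9.88, 10.78 and 10.52 in vehicle mice (1.78 ± 0.17 log2 units, 3.43-fold higher, adjusted p = 1.24e-05). Ppp1r15a (GADD34), which brings the phosphatase back to eIF2α, was higher by 1.71, and Atf4 itself by 0.64.

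Secreted and metabolic targets of the response were higher as well. Gdf15, a cytokine that curbs appetite, stood at 12.47, 11.48, 12.06, 12.47 and 11.64 in APAP mice and 8.52, 8.80, 8.90, 8.89 and 8.81 in vehicle mice (3.24 ± 0.18 log2 units, 9.46-fold higher, adjusted p = 1.32e-07). Fgf21, a hormone of starved and stressed liver, varied widely, at 12.25, 11.002, 12.20, 12.74 and 10.37 in APAP mice and 8.15, 7.84, 7.82, 8.19 and 9.87 in vehicle mice (3.34 ± 0.47 log2 units, 10.1-fold higher, adjusted p = 0.000286). Its lowest APAP mouse, at 10.37, was close to the highest vehicle mouse, at 9.87. Psat1, in serine synthesis, stood at 7.11, 7.81, 7.28, 7.43 and 7.17 in APAP mice and 5.46, 5.19, 5.14, 5.34 and 5.62 in vehicle mice (2.01 ± 0.13 log2 units, 4.02-fold higher, adjusted p = 5.23e-07). By contrast Atf5, Shmt2 and the tRNA synthetase Nars differed by -0.14, -0.29 and 0.18, and none of 20 aminoacyl-tRNA synthetases was called. The amino acid transporter Slc38a2 was higher by 1.25 and the pseudokinase Trib1 by 1.59.

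The amino acid response element (AARE), searched as TGATGNAAN on both strands, is bound by ATF4 with C/EBP partners. It was found in the windows of 6.15% of higher genes, 1.88% of lower genes and 3.16% of all genes. Of the 27 integrated stress response genes with a window, 6 held it, and 3 of these (Trib3, Chac1 and Fgf21) were higher. The Chac1 window, at chr2:119350992-119351291 (plus strand, GRCm38.p6), has its match in capitals, read on the minus strand and beginning at -194.
Chac1: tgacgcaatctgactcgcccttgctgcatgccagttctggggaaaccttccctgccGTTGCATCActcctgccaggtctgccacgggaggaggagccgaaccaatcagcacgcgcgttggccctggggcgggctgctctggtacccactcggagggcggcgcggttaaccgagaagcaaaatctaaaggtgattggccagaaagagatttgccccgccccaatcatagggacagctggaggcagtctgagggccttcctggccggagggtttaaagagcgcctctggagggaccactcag

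Chaperones of the endoplasmic reticulum ran against the rest of the stress genes. Of 25 such genes of the unfolded protein response none was higher and 12 were lower, with a median of -0.56 log2 units, and 24 of 25 differences were below 0. Creld2, a disulfide isomerase of this compartment, stood at 10.55, 11.18, 10.72, 11.19 and 10.84 in APAP mice and 13.38, 12.32, 12.44, 13.19 and 13.44 in vehicle mice (-2.06 ± 0.22 log2 units, 4.17-fold lower, adjusted p = 3.49e-05). Sdf2l1, a cofactor of the chaperone BiP, stood at 9.04, 9.75, 9.27, 9.37 and 9.34 in APAP mice and 11.94, 11.05, 11.28, 11.91 and 12.05 in vehicle mice (-2.29 ± 0.19 log2 units, 4.9-fold lower, adjusted p = 4.55e-06). Syvn1 (HRD1), the ubiquitin ligase of misfolded secretory proteins, stood at 11.39, 11.77, 11.47, 11.78 and 11.57 in APAP mice and 13.31, 12.30, 12.60, 13.20 and 13.11 in vehicle mice (-1.31 ± 0.17 log2 units, 2.48-fold lower, adjusted p = 0.000176). In all 3 genes vehicle mice 2 and 3 were the lowest of their group, and no array of the groups overlapped.

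Against the 5 untreated mice, 13 of the 25 genes were higher in vehicle mice at 3 h and none lower. Over all genes these shares were 1.14% and 0.853%. Creld2 in untreated mice ran from 10.57 to 11.68 and Syvn1 from 11.28 to 11.73, ranges that overlap those of APAP mice. Vehicle exceeded untreated by 1.87 in Creld2, 2.06 in Sdf2l1, 1.38 in Manf and 1.42 in Syvn1, and APAP minus vehicle was -2.06, -2.29, -1.30 and -1.31. Both comparisons share the vehicle arrays, so their sizes are not independent. BiP (Hspa5) itself stood at 13.14, 13.54, 13.27, 13.36 and 13.29 in APAP mice and 13.92, 13.49, 13.62, 13.85 and 13.84 in vehicle mice (-0.43 ± 0.092 log2 units, 1.34-fold lower, adjusted p = 0.0052), under the 1.5-fold limit, and Xbp1 differed by -0.05.

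The ER stress response element (ERSE), CCAAT and CCACG with 9 bases of any kind between them, on either strand, is bound by ATF6 and XBP1 with NF-Y. It occurred in the windows of 20 of the 14260 genes (0.14%), of 8 of the 320 lower genes (2.5%) and of none of the 244 higher genes. The 8 were Creld2, Syvn1, Derl3, Acnat2, Pdia6, Ero1lb, Alg12 and Dnajc3, of which Acnat2, Ero1lb, Alg12 and Dnajc3 were chosen for naming after their values were seen. Creld2 and Alg12 lie head to head and share the same site. Over all 20 genes the median was -0.40 for APAP minus vehicle and 0.40 for vehicle minus untreated, and 15 of 20 differences were below 0 in the first. Both use the same vehicle arrays. The windows of Creld2 (chr15:88819396-88819695, plus strand), Syvn1 (chr19:6046326-6046625, plus strand) and Pdia6 (chr12:17266339-17266638, plus strand) are given from GRCm38.p6 with the ERSE in capitals, read on the minus strand in Creld2. The match begins at -126, -44 and -98.
Creld2: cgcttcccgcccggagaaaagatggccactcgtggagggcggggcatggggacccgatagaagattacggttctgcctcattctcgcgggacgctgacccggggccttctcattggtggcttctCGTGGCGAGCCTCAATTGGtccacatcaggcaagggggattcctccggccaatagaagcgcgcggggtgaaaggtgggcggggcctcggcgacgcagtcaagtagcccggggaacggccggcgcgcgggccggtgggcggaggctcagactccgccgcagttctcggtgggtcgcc
Syvn1: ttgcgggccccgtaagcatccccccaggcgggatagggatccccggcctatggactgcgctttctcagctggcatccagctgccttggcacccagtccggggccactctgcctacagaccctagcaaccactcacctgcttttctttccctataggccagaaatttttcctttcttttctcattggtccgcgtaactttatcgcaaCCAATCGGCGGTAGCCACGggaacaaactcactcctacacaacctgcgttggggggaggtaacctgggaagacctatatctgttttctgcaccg
Pdia6: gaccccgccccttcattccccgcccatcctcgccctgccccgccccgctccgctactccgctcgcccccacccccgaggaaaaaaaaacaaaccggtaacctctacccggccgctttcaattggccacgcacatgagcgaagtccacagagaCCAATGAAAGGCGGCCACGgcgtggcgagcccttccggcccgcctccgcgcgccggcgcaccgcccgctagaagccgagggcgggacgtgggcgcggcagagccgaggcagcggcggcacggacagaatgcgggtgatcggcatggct

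Of 19 heat shock genes 4 were higher (Hspa1a, Hspa1b, Dnajb1 and Hspb8) and 1 lower. Without vehicle mouse 2 or APAP mouse 2 or 5, 2 were lower. In vehicle against untreated mice 11 of the 19 were higher, beside 1.14% of all genes. Dnajb1, the co-chaperone of HSP70, stood at 13.33, 13.94, 13.52, 13.18 and 13.98 in APAP mice and 11.04, 10.88, 11.22, 11.40 and 11.33 in vehicle mice (2.42 ± 0.15 log2 units, 5.35-fold higher, adjusted p = 5.23e-07). Hspa1b, an inducible HSP70 whose transcript is nearly identical to that of Hspa1a, so that their probe sets may share signal, stood at 12.98, 13.88, 13.40, 13.19 and 13.71 in APAP mice and 12.31, 11.69, 12.12, 12.95 and 12.63 in vehicle mice (1.09 ± 0.22 log2 units, 2.13-fold higher, adjusted p = 0.0035). Zfand2a (AIRAP), a proteasome adaptor outside that list, stood at 9.96, 11.17, 10.15, 10.12 and 11.38 in APAP mice and 9.31, 9.10, 9.001, 9.40 and 9.44 in vehicle mice (1.31 ± 0.25 log2 units, 2.47-fold higher, adjusted p = 0.00256). APAP mice 2 and 5 were the highest 2 of their group in all 3. The immunophilin Fkbp4 was lower (-0.87), and Hsp90ab1 and Hsf1 differed by 0.06 and -0.15.

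Of 14 metallothionein and zinc transport genes 3 were higher and 1 lower, beside 1.68% and 2.34% of all genes. The metallothioneins Mt1 and Mt2, small proteins that bind zinc and scavenge electrophiles, were higher, and the other metallothioneins of the list were not called. Mt2 stood at 14.03, 13.82, 13.94, 13.89 and 13.94 in APAP mice, 10.32, 10.12, 10.22, 9.66 and 10.71 in vehicle mice and 12.16 to 13.47 in untreated mice, a difference from vehicle of 3.72 ± 0.14 log2 units, 13.2-fold higher, adjusted p = 4.94e-09. Mt1 stood at 13.33, 12.74, 13.32, 13.30 and 13.02 in APAP mice and 11.71, 11.13, 11.23, 11.41 and 11.52 in vehicle mice (1.74 ± 0.13 log2 units, 3.35-fold higher, adjusted p = 1.97e-06). The zinc exporter Slc30a1 was higher (0.62), the importer Slc39a10 lower (-1.06), and the zinc sensor Mtf1 differed by -0.02. The metal response element (MRE), TGCGCNC, which MTF1 binds, was common: 29.5% of higher genes, 22.5% of lower genes and 25.5% of all genes had it in a window. In the Mt2 window (chr8:94172368-94172667, plus strand, GRCm38.p6) it occurs at -128 on the plus and 5 on the minus strand, both in capitals.
Mt2: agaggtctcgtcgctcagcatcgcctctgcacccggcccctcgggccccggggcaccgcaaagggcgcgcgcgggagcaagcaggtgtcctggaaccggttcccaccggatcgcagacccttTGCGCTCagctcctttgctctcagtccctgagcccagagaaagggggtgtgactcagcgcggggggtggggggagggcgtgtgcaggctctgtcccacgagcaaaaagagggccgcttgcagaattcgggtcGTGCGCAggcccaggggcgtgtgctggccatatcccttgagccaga

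Of 28 p53 targets and growth arrest genes 10 were higher and none lower, although the median over the list was only 0.03. Btg2, Gdf15, Ddit4 and Bbc3 are among the 10 and are also counted in the immediate early or integrated stress response lists. Trp53, the gene of p53, differed by -0.22 and was not called. Gadd45a, which binds PCNA and MAP3K4, stood at 10.66, 9.32, 10.38, 10.06 and 10.27 in APAP mice and 6.92, 7.06, 6.16, 6.46 and 7.73 in vehicle mice (3.27 ± 0.28 log2 units, 9.64-fold higher, adjusted p = 6.87e-06). Trp53inp1, a p53 cofactor in arrest and autophagy, stood at 11.98, 11.30, 11.90, 11.37 and 11.89 in APAP mice and 9.36, 9.76, 10.01, 8.77 and 8.78 in vehicle mice (2.35 ± 0.24 log2 units, 5.11-fold higher, adjusted p = 1.98e-05). Mdm2, the ligase of p53, stood at 9.97, 9.85, 9.76, 9.48 and 9.80 in APAP mice and 8.76, 8.61, 8.98, 8.93 and 8.72 in vehicle mice (0.97 ± 0.093 log2 units, 1.96-fold higher, adjusted p = 1.37e-05). Gadd45b and Gadd45g differed by 1.05 and 1.27, and only the groups of Gadd45g overlapped. The call of Gadd45g was lost when vehicle mouse 3, 4 or 5 or APAP mouse 4 or 5 was left out. Ccng2, a cyclin of resting cells, was higher by 1.49, and the G1 cyclin Ccnd1 was lower (-0.67).

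Of 29 cell death regulators 2 were higher (Tnfrsf12a and Bcl2l11) and none lower, beside 1.68% and 2.34% of all genes, and Bcl2l1 and Diablo differed by 0.18 and -0.12. Of 30 autophagy genes none was lower and 2 were higher: Sqstm1, given above, and the initiating kinase Ulk1 at 10.33, 9.99, 10.20, 10.02 and 9.99 in APAP mice and 9.06, 9.14, 9.40, 9.13 and 9.08 in vehicle mice (0.94 ± 0.084 log2 units, 1.92-fold higher, adjusted p = 8.18e-06). Map1lc3b and Gabarapl1 differed by 0.17 and 0.41, under the limit.

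**Figure D2:**
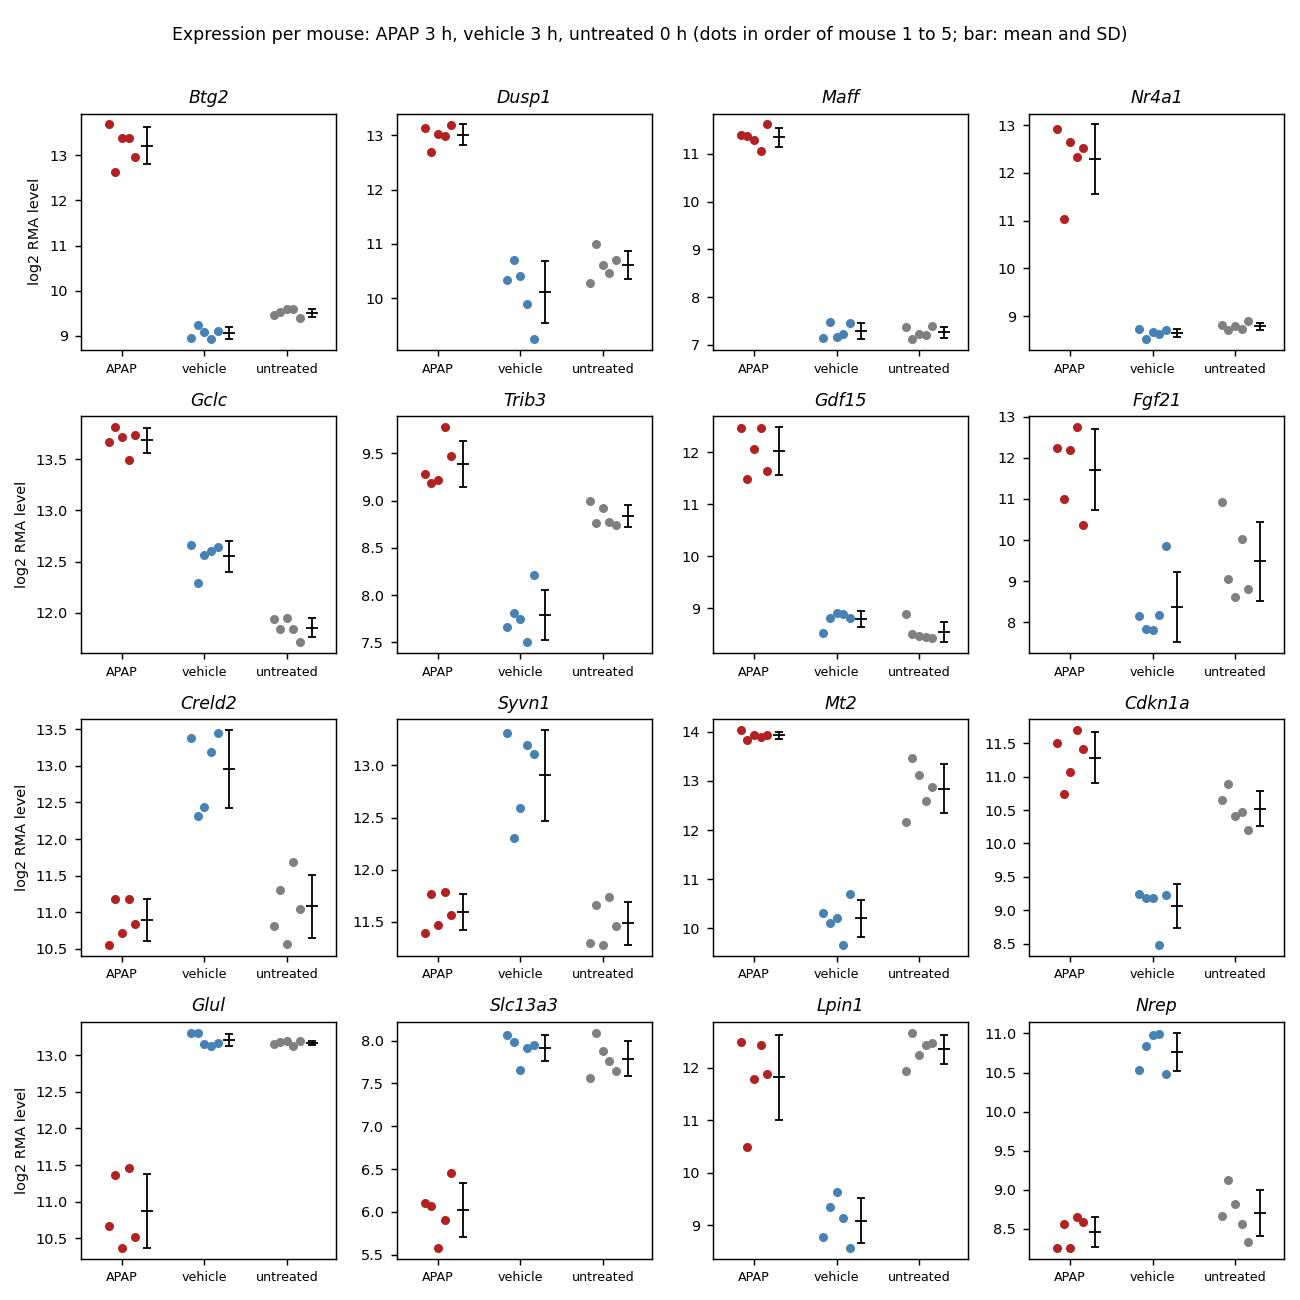
Log2 RMA level of 16 genes in each mouse, with APAP at 3 h at left, vehicle at 3 h in the middle and untreated at 0 h at right; dots run in order of mouse 1 to 5 and the bar gives mean and SD (n = 5). APAP and vehicle mice do not overlap in any of the 16 genes, and in Creld2, Syvn1, Cdkn1a, Lpin1, Fgf21 and Nrep the APAP mice overlap the untreated mice.

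Enzymes that metabolise APAP differed in size and direction. Cyp2e1, the main oxidase of the drug, stood at 14.40, 14.53, 14.48, 14.46 and 14.47 in APAP mice and 14.55, 14.50, 14.57, 14.54 and 14.52 in vehicle mice (-0.07 ± 0.044 log2 units, 1.05-fold lower, adjusted p = 0.314), and Cyp3a11 differed by -0.13, both near the top of the scale. Of 16 genes of APAP oxidation 2 were lower and none higher: Cyp1a2 at 11.84, 11.89, 11.77, 11.85 and 12.15 in APAP mice and 12.69, 12.60, 12.48, 12.55 and 12.22 in vehicle mice (-0.61 ± 0.092 log2 units, 1.52-fold lower, adjusted p = 0.000509), and its receptor Ahr at 9.45, 9.43, 9.37, 9.39 and 9.44 in APAP mice and 10.46, 10.27, 10.13, 10.13 and 9.99 in vehicle mice (-0.78 ± 0.076 log2 units, 1.71-fold lower, adjusted p = 1.6e-05). The call of Cyp1a2 was lost without vehicle mouse 1 or 2 or APAP mouse 3, leaving 1 lower, and in 1 model over all 45 arrays. Without vehicle mouse 3, with the replicate number as a block, with array weights or without dim genes 1 gene of the list was higher, and without APAP mouse 5, 2 were. Of 24 genes of conjugation 1 was higher (Abcc2, given above) and 1 lower, beside 1.68% and 2.34% of all genes. The 1 lower was Papss1, which makes the sulfate donor, at -0.73. Without APAP mouse 3 none of the 24 was higher, and without APAP mouse 4, 2 were lower. The sulfotransferase Sult1a1 and the glucuronosyltransferases Ugt2b35 and Ugt2b36 differed by -0.10, 0.31 and -0.16. Of 38 other P450 genes 10 were lower and none higher. Cyp26a1, which degrades retinoic acid, had the largest difference of the 10 at -1.57, followed by Cyp4f14 (-1.15) and Cyp2c70 (-1.12), and Cyp2c37, Cyp2c38 and Cyp2c50 were lower with overlapping groups. Members of the Cyp2c family are close in sequence, so signal may be shared among their probe sets.

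Pericentral genes held the largest share of decreases among the 40 pathway lists. Of 27 genes 17 were lower and none higher, with a median of -0.70 log2 units, and 26 of 27 differences were below 0. In bulk liver, fewer pericentral cells and less of a transcript in each cell cannot be told apart. Slc13a3, a dicarboxylate importer, stood at 6.10, 6.07, 5.58, 5.90 and 6.45 in APAP mice, against 8.07, 7.99, 7.66, 7.92 and 7.95 in vehicle mice (-1.89 ± 0.13 log2 units, 3.72-fold lower, adjusted p = 1.14e-06). Tbx3, a transcription factor and Wnt target, stood at 7.90, 8.94, 8.53, 9.05 and 8.68 in APAP mice and 10.57, 9.89, 9.74, 10.32 and 10.34 in vehicle mice (-1.55 ± 0.21 log2 units, 2.94-fold lower, adjusted p = 0.000196). Lect2, a secreted Wnt target, stood at 10.04, 10.04, 9.96, 9.85 and 10.66 in APAP mice and 11.96, 12.14, 11.76, 11.93 and 11.80 in vehicle mice (-1.81 ± 0.13 log2 units, 3.5-fold lower, adjusted p = 1.64e-06). Rnf43, the ligase that removes Wnt receptors, and the cation transporter Slc22a3 were lower as well, at -1.18 and -1.48.

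In Glul, Slc1a2 and Tbx3 APAP mice 2 and 4 had the highest levels of their group. Glul (glutamine synthetase), restricted to the last cells before the central vein, stood at 10.66, 11.37, 10.37, 11.45 and 10.52 in APAP mice, against 13.30, 13.30, 13.15, 13.13 and 13.17 in vehicle mice and 13.13 to 13.20 in untreated mice. The glutamate transporter Slc1a2 of the same cells stood at 7.67, 8.42, 7.83, 8.76 and 7.94 in APAP mice and 10.30, 10.30, 10.21, 10.14 and 10.24 in vehicle mice. In both genes every APAP mouse was below every vehicle mouse. Cyp27a1 and Oat, from the same list, differed by 0.02 and -0.51 and were not called. The list's median for vehicle minus untreated was 0.05, with 2 genes higher and none lower.

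Periportal genes held 3 increases and no decrease among 25, beside 1.68% and 2.34% of all genes. These were Pck1, at 1.43, the serine dehydratase Sds, at 0.99 with overlapping groups, and the arginine transporter Slc7a2, at 11.96, 11.62, 11.86, 11.93 and 11.74 in APAP mice and 11.07, 10.88, 11.10, 11.002 and 11.14 in vehicle mice (0.79 ± 0.073 log2 units, 1.73-fold higher, adjusted p = 1.15e-05). Cps1 and Arg1 of the urea cycle differed by 0.10 and 0.19.

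Of 28 hepatocyte identity transcription factors 6 were lower and none was higher, beside 2.34% and 1.68% of all genes. Without vehicle mouse 3 or APAP mouse 5, with the replicate number as a block, with array weights or without dim genes 1 was higher. Foxa1, a pioneer factor, stood at 9.16, 10.22, 9.24, 9.76 and 10.46 in APAP mice and 10.77, 10.52, 10.90, 11.28 and 11.02 in vehicle mice (-1.13 ± 0.23 log2 units, 2.19-fold lower, adjusted p = 0.00399), and Foxa2 at 9.15, 9.77, 9.39, 9.86 and 10.42 in APAP mice and 10.45, 10.73, 11.02, 10.82 and 10.47 in vehicle mice (-0.98 ± 0.2 log2 units, 1.97-fold lower, adjusted p = 0.00353). In both the lowest APAP mouse was number 1 and the highest number 5. Hes6 was lower by more, at 8.60, 8.08, 8.19, 8.10 and 8.64 in APAP mice and 9.84, 9.96, 9.85, 10.06 and 9.65 in vehicle mice (-1.55 ± 0.12 log2 units, 2.93-fold lower, adjusted p = 2.64e-06). Onecut1, Onecut2 and Nr2f2 differed by -1.37, -0.91 and -1.08, while Hnf4a and Cebpa differed by 0.38 and -0.44 and were not called.

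Of 29 genes of growth hormone action and male-biased expression 5 were lower and 1 higher, or 2 higher without vehicle mouse 4. The 1 was Socs3, the feedback inhibitor of cytokine receptors, at 11.39, 10.73, 11.50, 11.74 and 11.14 in APAP mice and 9.25, 9.55, 9.24, 9.28 and 8.91 in vehicle mice (2.06 ± 0.16 log2 units, 4.16-fold higher, adjusted p = 3.58e-06). Igfals, which holds IGF-1 in the blood, stood at 10.55, 10.36, 10.40, 9.69 and 10.84 in APAP mice and 11.71, 11.89, 11.82, 11.66 and 11.31 in vehicle mice (-1.31 ± 0.18 log2 units, 2.48-fold lower, adjusted p = 0.000208), and the coenzyme A hydrolase Nudt7 at 10.35, 10.35, 10.21, 10.51 and 10.47 in APAP mice and 11.25, 11.29, 11.35, 11.50 and 11.31 in vehicle mice (-0.97 ± 0.067 log2 units, 1.95-fold lower, adjusted p = 1.08e-06). Igf1, Socs2 and Serpina3k differed by -0.10, -0.05 and 0.02.

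Metabolic genes that follow fasting and feeding moved in both directions. Of 32 gluconeogenesis and insulin-FOXO target genes 11 were higher and 3 lower. Against untreated mice 8 of the 32 were lower in vehicle mice and 1 higher, beside 0.853% and 1.14% of all genes. Of 34 PPARα and fasting fat oxidation genes 5 were higher and 3 lower. The median of that list was -0.04 log2 units, and 23 of the 34 differences were below 0. Lpin1, a phosphatidate phosphatase and co-activator of fasting, stood at 12.49, 10.49, 11.78, 12.44 and 11.89 in APAP mice, 8.77, 9.35, 9.63, 9.13 and 8.57 in vehicle mice and 11.94 to 12.66 in untreated mice (2.73 ± 0.33 log2 units, 6.62-fold higher, adjusted p = 9.08e-05 for APAP minus vehicle). Lpin2 stood at 12.05, 11.50, 11.66, 11.94 and 11.72 in APAP mice and 9.40, 9.70, 9.72, 9.24 and 9.68 in vehicle mice (2.23 ± 0.12 log2 units, 4.68-fold higher, adjusted p = 1.01e-07). G6pc of gluconeogenesis stood at 13.92, 12.95, 13.78, 13.58 and 13.39 in APAP mice and 12.66, 12.34, 11.97, 11.01 and 11.04 in vehicle mice (1.72 ± 0.3 log2 units, 3.3-fold higher, adjusted p = 0.00143). In all 3 genes vehicle mice lay below untreated mice, with vehicle minus untreated of -3.26, -1.78 and -1.65, and APAP mice overlapped the untreated range.

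Further called increases of the fasting fat oxidation list were those of Pdk4 and Angptl4. Pdk4, which blocks pyruvate oxidation, stood at 9.01, 9.51, 8.55, 9.69 and 8.81 in APAP mice and 8.16, 7.51, 7.18, 7.60 and 7.33 in vehicle mice (1.56 ± 0.22 log2 units, 2.95-fold higher, adjusted p = 0.000306). Angptl4, an inhibitor of lipoprotein lipase, stood at 12.31, 11.81, 11.89, 12.10 and 12.05 in APAP mice and 10.39, 10.37, 10.58, 9.96 and 10.19 in vehicle mice (1.73 ± 0.12 log2 units, 3.33-fold higher, adjusted p = 8.66e-07), with 12.39 to 12.67 in untreated mice, just above the APAP range. Cpt1a, which carries fatty acids into mitochondria for oxidation, differed by 0.26 and was not called. Angptl8, which insulin induces, was lower at -0.97, with overlapping groups. The insulin receptor substrate Irs1 stood at 9.67, 9.56, 9.65, 9.87 and 9.96 in APAP mice and 10.94, 10.90, 10.67, 10.89 and 10.77 in vehicle mice (-1.09 ± 0.082 log2 units, 2.13-fold lower, adjusted p = 2.06e-06).

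Of 23 sterol genes 7 were lower, none higher, and all 23 differences were below 0. Sqle, the squalene epoxidase, stood at 8.36, 8.76, 8.41, 8.22 and 8.61 in APAP mice and 9.68, 11.36, 9.80, 9.47 and 9.44 in vehicle mice (-1.48 ± 0.3 log2 units, 2.79-fold lower, adjusted p = 0.00347), and Mvd at 7.03, 6.83, 6.67, 6.76 and 6.73 in APAP mice and 8.08, 9.39, 7.68, 7.91 and 8.08 in vehicle mice (-1.42 ± 0.25 log2 units, 2.68-fold lower, adjusted p = 0.00129). Vehicle mouse 2 was the highest by more than 1 log2 unit in both. Without vehicle mouse 2, 5 sterol genes were lower, and Sqle and Mvd, both still called, each differed by -1.13. Of 26 fatty acid synthesis genes 3 were lower and 2 higher, beside 2.34% and 1.68% of all genes. The lower ones included Fasn (-0.88) and Elovl6 (-0.83). One of the increases was large: choline kinase (Chka) stood at 12.61, 12.68, 12.52, 12.69 and 12.86 in APAP mice and 10.01, 9.49, 9.54, 9.65 and 9.34 in vehicle mice (3.06 ± 0.11 log2 units, 8.37-fold higher, adjusted p = 2.34e-09), and no other member of that list moved as far. Cyp7a1, the rate-limiting enzyme of bile acid synthesis, was lower at -1.17, and Cyp8b1 and the bile acid importer Slc10a1 differed by 0.02 and -0.07.

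Clock genes were split. Of 23, 4 were higher (Nfil3 1.65, Per1 0.91, Arntl 0.76, Rora 0.70) and 2 lower, beside 1.68% and 2.34% of all genes. Per2 stood at 7.23, 7.05, 7.24, 7.72 and 7.57 in APAP mice, 8.34, 8.48, 8.59, 8.83 and 8.56 in vehicle mice and 6.71 to 7.01 in untreated mice (-1.20 ± 0.12 log2 units, 2.29-fold lower, adjusted p = 2.42e-05 for APAP minus vehicle). Dbp was lower at -1.22, and its groups overlapped through vehicle mouse 1. Of 28 heme and iron genes 1 was higher and 2 lower, beside 1.68% and 2.34% of all genes. The 2 lower were Alad (-1.02) and Cpox (-0.67) of heme synthesis, and Alas1, its rate-limiting enzyme, differed by -0.18.

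Of 31 genes of NF-κB and TNF feedback 5 were higher and 1 lower, beside 1.68% and 2.34% of all genes. The 1 lower gene lay within 0.02 of the 1.5-fold limit and was not called without vehicle mouse 1 or 5 or APAP mouse 1 or 3. Nfkbiz, an atypical inhibitor protein that acts in the nucleus, stood at 10.67, 10.11, 10.72, 10.68 and 10.70 in APAP mice and 8.72, 8.58, 8.45, 8.48 and 8.87 in vehicle mice (1.96 ± 0.12 log2 units, 3.89-fold higher, adjusted p = 3.11e-07). Vcam1, Rel and the endotoxin co-receptor Cd14 were higher by 0.83, 0.90 and 1.06, and Tnfaip3 and Nfkb1 differed by 0.23 and 0.07. The oncostatin M receptor Osmr, one of 3 genes higher among 36 of the acute phase list, stood at 8.61, 8.61, 8.33, 8.47 and 8.97 in APAP mice and 7.29, 7.03, 7.18, 7.22 and 7.37 in vehicle mice (1.38 ± 0.1 log2 units, 2.6-fold higher, adjusted p = 2.21e-06). The others were Mt2 and Socs3, given above with other lists, and no secreted acute phase protein of the list was called higher. Among the acute phase proteins Saa1 stood at 11.43, 9.89, 11.05, 10.70 and 12.15 in APAP mice and 11.22, 12.11, 10.41, 11.70 and 10.90 in vehicle mice, overlapping widely, and Orm2 was lower at -0.76, a call lost in 1 model over all 45 arrays. It was the 1 lower gene of its list, and without APAP mouse 4, 2 were lower.

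Of 35 chemokine and cytokine genes 2 were higher and 1 lower, beside 1.68% and 2.34% of all genes. Cxcl1, which draws neutrophils, stood at 10.36, 9.38, 11.23, 11.51 and 10.64 in APAP mice and 8.51, 8.69, 8.48, 8.76 and 8.67 in vehicle mice (1.999 ± 0.3 log2 units, 4.0-fold higher, adjusted p = 0.000498). Cxcl2, a ligand of the same receptor, stood at 6.97, 7.29, 6.82, 6.52 and 6.58 in APAP mice and 5.27, 5.27, 5.03, 5.18 and 5.76 in vehicle mice (1.53 ± 0.15 log2 units, 2.89-fold higher, adjusted p = 2.15e-05), a low level on this scale, and with the dimmest 25% of genes left out 1 gene of the list was higher. Cxcl12, which binds CXCR4, stood at 10.79, 10.65, 10.77, 10.46 and 10.87 in APAP mice and 11.50, 11.44, 11.53, 11.47 and 11.24 in vehicle mice (-0.73 ± 0.081 log2 units, 1.66-fold lower, adjusted p = 4.45e-05). In all 3 genes the APAP and vehicle mice did not overlap.

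Interferon-induced genes held 8 decreases and no increase among 27, beside 2.34% and 1.68% of all genes, and 24 differences were below 0. Without APAP mouse 4, 5 were lower, and without both APAP mouse 4 and vehicle mouse 3, a choice made after seeing the data, 2 were. Igtp, an immunity-related GTPase, stood at 9.94, 10.19, 10.14, 9.67 and 10.48 in APAP mice and 11.07, 11.34, 11.27, 10.81 and 10.44 in vehicle mice (-0.90 ± 0.17 log2 units, 1.87-fold lower, adjusted p = 0.00266), and its groups overlapped because vehicle mouse 5 was low. Oasl1 was lower without overlap, at 8.79, 8.96, 9.10, 8.84 and 8.997 in APAP mice and 9.66, 9.86, 9.97, 9.65 and 9.32 in vehicle mice (-0.76 ± 0.11 log2 units, 1.69-fold lower, adjusted p = 0.000299). In vehicle minus untreated the list's median was 0.33, with 4 genes higher and none lower, and for APAP minus vehicle it was -0.30, beside -0.02 and 0.02 over all genes. Both differences use the same vehicle arrays and are not independent.

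Wound and growth factor genes held 11 increases and 1 decrease among 38. Thbs1, a matrix glycoprotein that activates TGF-β, stood at 8.57, 8.09, 8.20, 7.86 and 8.50 in APAP mice and 5.69, 5.57, 5.70, 5.75 and 5.82 in vehicle mice (2.54 ± 0.12 log2 units, 5.8-fold higher, adjusted p = 2.72e-08). The TGF-β family gene Inhbb and the EGF receptor ligand Areg were higher by 1.22 and 1.02, and Tgif1, a repressor of TGF-β signalling, by 1.641. Hgf and its receptor Met differed by 0.51 and -0.34, and Egfr by 0.33. The 1 decrease was Rspo3, a ligand that amplifies Wnt signals, at -0.74. Annexin A2 (Anxa2), a membrane-binding protein, was lower at 8.96, 8.89, 8.87, 8.96 and 9.09 in APAP mice and 9.78, 9.97, 9.86, 9.85 and 9.87 in vehicle mice (-0.91 ± 0.057 log2 units, 1.88-fold lower, adjusted p = 3.85e-07).

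No member was called in 4 lists: 31 ribosome biogenesis genes, 20 aminoacyl-tRNA synthetases, 29 proteasome subunits and 34 respiratory chain subunits. Their medians were 0.11, 0.02, -0.12 and -0.10 log2 units. Without APAP mouse 5, 1 proteasome subunit was lower. For the respiratory chain 31 of 34 differences were below 0, for example Ndufa4 at 13.53, 13.53, 13.52, 13.63 and 13.57 in APAP mice and 13.72, 13.82, 13.61, 13.66 and 13.79 in vehicle mice. Of 43 coagulation and complement genes 1 was higher and none lower, beside 1.68% and 2.34% of all genes. Prothrombin (F2) and antithrombin (Serpinc1) differed by -0.04 and -0.08.

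Some of the largest decreases lay outside these lists. Serpina7, the thyroxine-binding globulin, had the largest of all, at 4.85, 5.84, 5.09, 6.86 and 6.96 in APAP mice, 10.11, 10.59, 10.10, 8.53 and 7.74 in vehicle mice and 5.98 to 7.69 in untreated mice (-3.50 ± 0.56 log2 units, 11.3-fold lower, adjusted p = 0.000734 for APAP minus vehicle). Vehicle mice 4 and 5 were the lowest of their group and still above every APAP mouse. Nrep, a regulator of TGF-β and wound repair, stood at 8.26, 8.57, 8.26, 8.65 and 8.59 in APAP mice and 10.53, 10.85, 10.97, 10.99 and 10.48 in vehicle mice (-2.30 ± 0.12 log2 units, 4.92-fold lower, adjusted p = 7.22e-08), and untreated mice ran from 8.34 to 9.12. The succinate receptor Sucnr1 stood at 7.99, 7.49, 7.83, 8.44 and 8.23 in APAP mice and 9.66, 9.996, 9.72, 9.58 and 9.72 in vehicle mice (-1.74 ± 0.15 log2 units, 3.33-fold lower, adjusted p = 5.94e-06), and here untreated mice, at 9.02 to 10.04, lay near the vehicle mice. Others were the taste receptor chaperone Rtp3 (-1.93), the alcohol dehydrogenase Adh4 (-1.85), the aldo-keto reductase Akr1c20 (-1.78), and Nxpe2 (-2.08), Fam47e (-1.84) and the pseudogene Adh6-ps1 (-1.72).

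Vehicle mice themselves differed from untreated mice. Against untreated mice 208 genes, or 1.14%, were higher in vehicle mice at 3 h and 155, or 0.853%, were lower. Vehicle exceeded untreated in Angptl8, Serpina7, Nrep and Sdf2l1, by 2.66, 2.42, 2.06 and 2.06, and in each of these APAP was below vehicle. Vehicle lay below untreated in Igfbp1, Lpin1, Zbtb16, Mt2 and Angptl4, with vehicle minus untreated of -3.33, -3.26, -2.76, -2.64 and -2.20, and in each APAP was above vehicle. Both comparisons use the same vehicle arrays, so opposite signs here are no independent result. Zbtb16, a zinc-finger repressor, stood at 9.81, 8.80, 10.03, 9.70 and 9.37 in APAP mice, 7.16, 7.16, 7.53, 6.80 and 7.23 in vehicle mice and 9.41 to 10.18 in untreated mice. Food intake after dosing was not given, so a difference in intake between the groups and the drug itself cannot be told apart here. Untreated mice were killed at 0 h without gavage. Time of day, gavage and food therefore cannot be told apart in vehicle minus untreated. For other genes vehicle and untreated differed little, with vehicle minus untreated of 0.03 in Maff, -0.01 in Thbs1, -0.11 in Psat1, 0.04 in Glul and -0.01 in Slc1a2.

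The 3 h differences were set beside those of other mice at 6 h, where 416 genes (2.29%) were higher and 551 (3.03%) lower in APAP. All 306 genes higher at 3 h had a difference above 0 at 6 h and 421 of the 426 lower genes one below 0, with 0 of either called in the opposite direction. Their median differences at 6 h were 1.00 and -0.76 log2 units, against 0.99 and -0.78 at 3 h. A test of the change in the APAP effect between 3 and 6 h gave 37 genes (0.204%) whose effect was higher at 6 h and 8 (0.044%) whose effect was lower, while 1887 genes had an unadjusted p under 0.05. These counts were the least stable of the report, at 138 and 40 with array weights, and moved to 17 lower effects without APAP mouse 2 of 3 h. Among genes also called at 3 h was Nr4a1, at 3.64 at 3 h and 1.56 at 6 h (change -2.07 ± 0.34, adjusted p = 0.00166). Egr2 was at 2.87 and 0.96 (change -1.91), and the FOXO factor Foxo3 at 1.08 and 0.12 (change -0.96). In the other direction Hspa1b was at 1.09 at 3 h and 3.66 at 6 h (change 2.56 ± 0.49, adjusted p = 0.00546), the transcriptional co-regulator Ifrd1 at 2.41 and 3.68 (change 1.27), and Rspo3 at -0.74 and 0.13 (change 0.88).

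More effects had changed by 24 h. The test of the change between 3 and 24 h gave 1097 genes (6.03%) whose effect was higher at 24 h and 402 (2.21%) whose effect was lower. Of the 426 genes lower at 3 h, 80 were also lower and 38 higher at 24 h, and of the 306 genes higher at 3 h, 71 were also higher and 3 lower. Creld2 was at -2.06, -1.80, 0.19 and 1.998 log2 units at 3, 6, 9 and 24 h, Sdf2l1 at -2.29, -1.90, -0.12 and 1.71, and Anxa2 at -0.91, -0.64, -0.12 and 2.52. Glul kept its deficit at -2.34, -1.80, -2.35 and -3.14. Psat1 was at 2.01, 3.51, 3.74 and 4.14, whereas Dusp1 was at 2.89, 1.98, 1.47 and 0.31 and Lpin1 at 2.73, 1.24, 0.07 and -0.31.

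**Figure D3:**
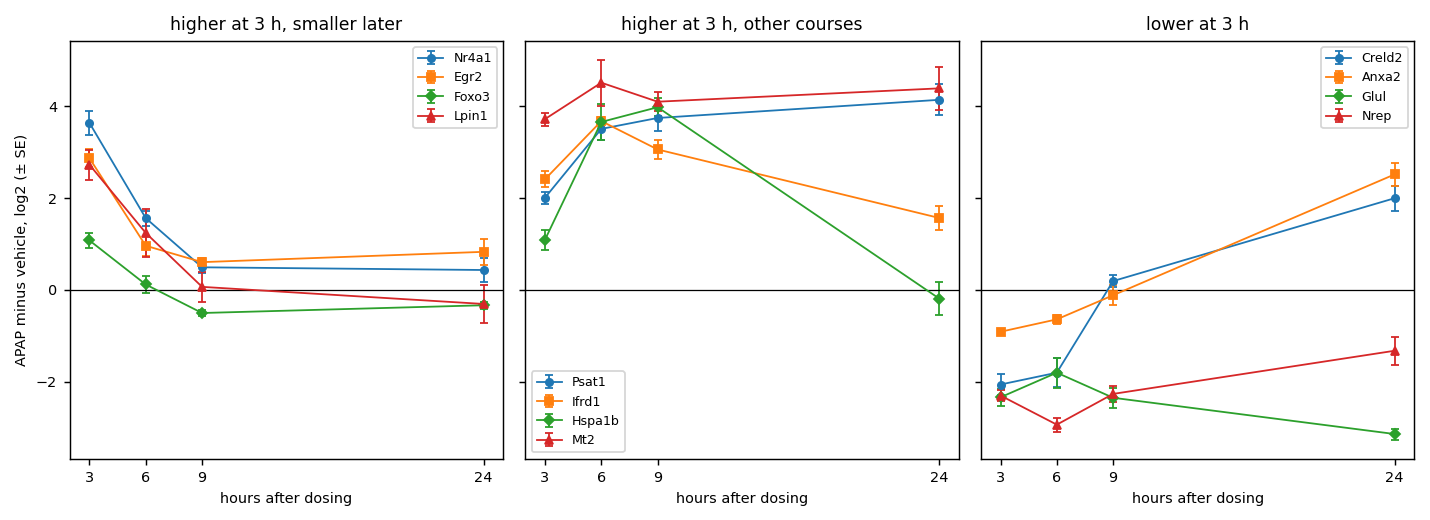
Difference between APAP and vehicle mice (log2, ± SE) against hours after dosing for 12 genes called at 3 h, with separate mice at each time (n = 5 per group). Nr4a1, Egr2, Foxo3 and Lpin1 were nearer 0 at later times, Psat1 and Mt2 stayed called at every time, and Creld2 and Anxa2 crossed 0 by 24 h while Glul did not.

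Over the 306 higher genes each APAP mouse's median distance from the vehicle mean was 1.10, 0.91, 0.97, 1.05 and 1.04 log2 units in mice 1 to 5, and over the 426 lower genes -0.90, -0.78, -0.86, -0.77 and -0.67. These genes were chosen on the same arrays, so the medians are a description. Among the called genes the scatter between APAP mice was wide in Fgf21, Serpina7, Lpin1 and the heat shock gene Hspa1a, with SDs of 0.986, 0.976, 0.806 and 0.817, against a median SD of 0.108 over all genes.

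Further motifs were searched in the start windows, read on both strands unless stated. The antioxidant response element TGACNNNGC was in the windows of 25% of higher genes and 16.2% of both lower genes and all genes. The AP-1 site TGANTCA was in the windows of 11.9%, 7.19% and 7.6% of higher, lower and all genes. A variant CRE, TGACGTA, was in those of 4.1%, 2.19% and 1.93%, and the EGR site GCGTGGGCG in 2.87%, 0.625% and 1.14%. The heat shock element GAANNTTC was in 8.61%, 7.19% and 7.57%, and the TATA box TATAAA, read on the gene's strand alone, in 13.1%, 9.06% and 7.46%. A stretch can match both the variant CRE and the antioxidant element, but none can match both the CRE and the AP-1 site. These shares were not tested, and a match of letters is not a site that was shown to be bound.

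**Figure D4:**
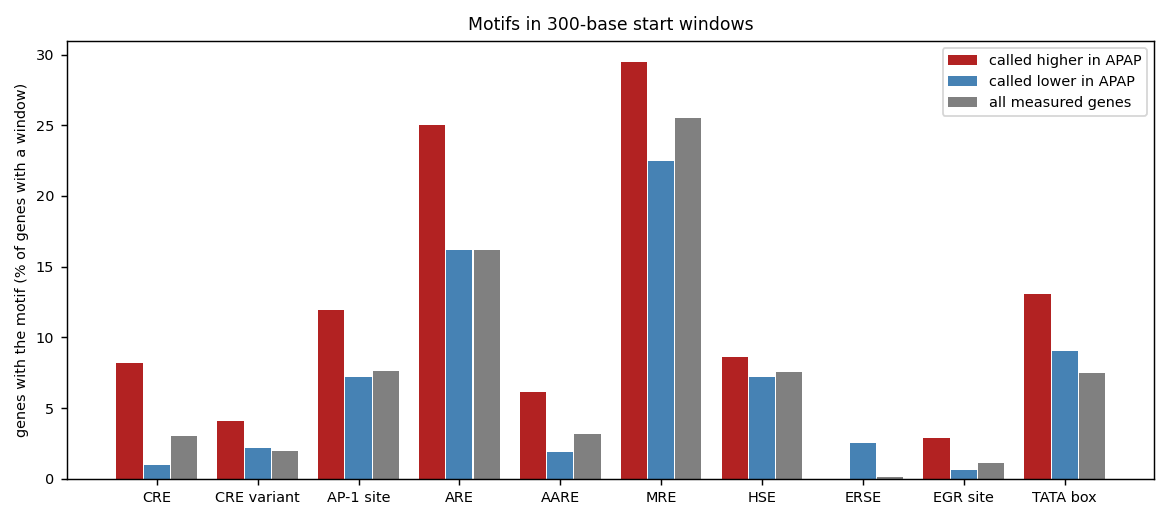
Percentage of genes with each of 10 motifs in a 300-base RefSeq start window, for genes called higher in APAP at 3 h (244 with a window), called lower (320) and all measured genes (14260). The CRE was in 8.2% of higher genes and 0.938% of lower genes, and the ERSE in none of the higher and 2.5% of the lower.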

How the data were processed

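Total RNA from frozen liver of 1 mouse per array was labelled as biotinylated cRNA and hybridised to Affymetrix mouse genome arrays. The deposited values are log2 levels that the authors made with RMA (affy 1.64.0 under R 3.6.1, per the labels), on a probe-set definition with 1 set per Entrez gene. The table held 18180 genes on 45 arrays in 9 groups of 5, and RMA fits all arrays together and compresses low values, so small changes of dim genes may be understated. Files held 45 further value columns, which were not used, and rat, human and protein measurements of the study are not analysed here. Arrays give no read depth, so the number of arrays limits the precision.

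APAP and vehicle arrays at 3 h were compared with limma 3.58.1 (R 4.3.3) on the log2 values as deposited, with no filter and no covariate, 5 arrays against 5, and p-values were adjusted by Benjamini-Hochberg over all genes. Calls needed an adjusted p below 0.05 together with a 1.5-fold or larger change. The comparison at 6 h and that of vehicle with untreated mice were fitted in the same way. The change of the APAP effect between times was an interaction term in a fit over the arrays of all APAP and vehicle groups, at every time after dosing. Nothing in the labels says whether mice were caged or dosed together. The fits were tested on simulated data with known changes. The deviations of same-numbered APAP and vehicle arrays had correlations of -0.266, -0.209, 0.398, -0.063 and -0.196, negative except for number 3. Arrays of unlike number gave -0.436 to 0.36, a range that number 3 exceeded. The numbers were not taken as pairs.

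Genes named in the text were the 20 largest changes in each direction without overlap, the first 3 members of each list, up to 8 called members and up to 3 bright members not called of each list, the 10 called genes with the largest SD among APAP arrays, the 10 largest changes of effect in each direction at each later time, and the 5 largest changes in each direction of vehicle against untreated mice. The lists and the comparison were chosen with earlier results of these data known. Some genes belong to more than 1 list, so the counts of different lists are not independent. Start windows came from RefSeq (GRCm38.p6) and were matched by gene for 14260 genes. Alternatives were array weights, trend and robust moderation, 1 model over 45 arrays, re-centred arrays, the dimmest 25% of genes left out, stricter thresholds, the replicate number as a block, and each array left out in turn. Some genes of the lists are not reported here.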

Additional observations from a re-analysis of the deposited data

Results flagged for a closer look

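Among 410 combinations of a named gene and a group of 5 mice, 26 had 1 mouse far from the other 4, and chance gives about 1 in 20 such groups. Each is given as its log2 level, with that of the next mouse and the mouse number. In APAP mice at 3 h the highest mouse stood apart in Adh4 10.89 (next 10.47, mouse 5), Ddit3 12.40 (next 12.03, mouse 5), Lect2 10.66 (next 10.04, mouse 5), Trib1 9.99 (next 9.56, mouse 5), Ugt2b36 13.61 (next 13.49, mouse 5). In APAP mice at 3 h the lowest mouse stood apart in Ccnd1 8.05 (next 8.33, mouse 4), Cpt1a 12.03 (next 12.11, mouse 4), Cyp26a1 7.92 (next 8.24, mouse 3), Klf15 9.05 (next 9.88, mouse 2), Nfkbiz 10.11 (next 10.67, mouse 2), Sds 12.32 (next 13.18, mouse 2). In vehicle mice at 3 h the highest mouse stood apart in Fgf21 9.87 (next 8.19, mouse 5), Gpx1 14.45 (next 14.39, mouse 2), Mvd 9.39 (next 8.08, mouse 2), Slc30a1 10.45 (next 10.18, mouse 2), Sqle 11.36 (next 9.80, mouse 2), Tnfrsf12a 9.91 (next 9.30, mouse 5), Ulk1 9.40 (next 9.14, mouse 3). In vehicle mice at 3 h the lowest mouse stood apart in Cps1 14.22 (next 14.31, mouse 2), Cyp8b1 13.29 (next 13.60, mouse 2), Fth1 14.28 (next 14.36, mouse 5), Gclc 12.29 (next 12.56, mouse 2), Gdf15 8.52 (next 8.80, mouse 1), Gss 10.10 (next 10.36, mouse 3), Igf1 12.46 (next 12.71, mouse 5), Nr2f2 8.28 (next 8.61, mouse 5).

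The APAP effect changed between times in these named genes, by the interaction test of limma, given as the later effect minus that at 3 h in log2 units with its adjusted p. Between 3 and 6 h the change was -1.91 in Egr2 (0.0027), -0.96 in Foxo3 (0.018), 2.56 in Hspa1b (0.0055), 1.27 in Ifrd1 (0.046), -2.07 in Nr4a1 (0.0017), 0.88 in Rspo3 (0.0024). Between 3 and 24 h the change was 3.43 in Anxa2 (4.5e-11), 4.06 in Creld2 (8.3e-10), -2.58 in Dusp1 (6.1e-05), -2.04 in Egr2 (1.4e-05), -1.41 in Foxo3 (2.9e-06), -1.28 in Hspa1b (0.035), -0.84 in Ifrd1 (0.031), -3.03 in Lpin1 (0.00046), -3.20 in Nr4a1 (8.8e-09), 2.13 in Psat1 (0.00016), 4.002 in Sdf2l1 (2.8e-10).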

How the results depend on the processing

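At 3 h, leaving out each array in turn gave 302 to 320 higher and 384 to 478 lower genes (gene list members called: 203 to 220, against 212). The replicate number as a block gave 304 and 423, of which 303 and 423 were the same genes as without it. Array weights, trend and robust moderation, 1 model, re-centring, leaving out dim genes and an adjusted p under 0.01 each kept both counts within 1.5 times. Leaving out APAP mouse 4 and vehicle mouse 3 together, chosen after seeing the data, gave 321 higher and 513 lower genes, 285 and 392 of them shared. A test against a 1.5-fold change gave 126 higher and 74 lower genes (list members: 91), and a limit of 2-fold gave 152 and 100 (list members: 116). Under the same 2 settings the 6 h counts were 91 and 69, then 184 and 130. For vehicle against untreated they were 29 and 31, then 51 and 49, and for the change by 24 h 118 and 50, then 275 and 144. The change by 6 h was the least stable: 0 and 0 in the test against 1.5-fold, 9 and 4 at 2-fold, 18 and 4 at an adjusted p under 0.01, and 138 and 40 with array weights, against 37 higher and 8 lower effects. Leaving out 1 array there gave 26 (without APAP 3 h mouse 1) to 56 (without APAP 6 h mouse 5) and 5 (without APAP 3 h mouse 1) to 17 (without APAP 3 h mouse 2). The causes were not tested.

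Calls of named genes that were lost on leaving out 1 array were those of Abcc2 (0.56 without APAP mouse 3), Cyp1a2 (-0.56 and -0.58 without vehicle mouse 1 or 2, -0.57 without APAP mouse 3), Map3k5 (0.58 without APAP mouse 5), S100a9 (0.57 without APAP mouse 3) and Gadd45g (1.02 to 1.24 without vehicle mouse 3, 4 or 5 or APAP mouse 4 or 5). The call of Gadd45g was also lost with the replicate block, in 1 model over all 45 arrays, with trend and robust moderation and at an adjusted p under 0.01, at an unchanged 1.27 in each, and without both APAP mouse 4 and vehicle mouse 3 (1.11). The 1 model also lost Angptl8, Cyp1a2, Orm2, S100a8 and S100a9, the adjusted p under 0.01 lost Angptl8, Dbp, Orm2 and Per1, and leaving out both mice lost Angptl8 (-0.86), Atf4 (0.58) and Slc30a1 (0.56). The test against 1.5-fold and the limit of 2-fold lost 72 and 53 named genes. Called only under another setting were Hgf (0.59) without both mice and Oat without both mice (-0.63) or with array weights (-0.60). Some list counts named above moved by over 1.5 times too: array weights gave 2 lower heat shock genes, 2 lower wound genes, 2 lower acute phase genes, 1 lower Nrf2 target and 1 lower ribosome biogenesis gene, an adjusted p under 0.01 gave 4 lower sterol genes, 1 lower clock gene and 0 lower acute phase genes, and 1 model gave 0 higher neutrophil markers. Without both mice 1 fatty acid synthesis gene was higher, and 1 Nrf2 target, 1 ribosome biogenesis gene, 2 conjugation genes and 2 acute phase genes were lower. Under the settings run, no called named gene turned its direction. Very dim and very bright probe sets limit what could be seen, and 5 mice a group limit the smallest change that passes.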
